A study of Homo sapiens with 7 samples.

Results

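The response of progerin-expressing skin fibroblasts to a farnesyltransferase inhibitor (FTI) was measured by setting 1 array of treated cells against 1 array of untreated cells, 2 of the 7 arrays of the series. The cells were primary human dermal fibroblasts of a single strain from a healthy person, all at passage 10, and RNA was hybridised to Affymetrix U133 Plus 2.0 arrays. The untreated cells overexpressed progerin and nothing else named in the labels. The treated cells overexpressed progerin and received the FTI L-744832 at 10 nM (the labels write the unit in lower case) for 48 h, the time given for the series. The labels offer DMSO as the alternative to FTI without saying which arrays received it. The remaining 5 arrays were 2 controls (control 1 and control 2, described only as fibroblasts), the same strain overexpressing prelamin A, prelamin A with the same FTI treatment, and prelamin A together with ZMPSTE24. The title of the treated prelamin A array leaves out prelamin A, while its other labels give it. By the study's methods the lamin genes were delivered by lentivirus from a CMV promoter, so their level is not under the control of the cells' own LMNA gene. The question of the series was which genes changed by progerin or prelamin A return towards the control level with FTI.

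Lamin A is made as prelamin A, whose C-terminal CAAX motif is farnesylated, trimmed, methylated and then removed by the zinc metalloprotease ZMPSTE24. Progerin, the product of a mis-spliced LMNA transcript in Hutchinson-Gilford progeria, lacks the second ZMPSTE24 cleavage site and keeps its farnesyl anchor in the nuclear membrane. FTIs block the enzyme that adds the farnesyl group, an enzyme that also serves many other proteins, RAS family GTPases among them.

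Signals are MAS 5.0 units, in which each array has a trimmed mean of 500, and differences are given as treated minus untreated on log2(signal + 16), a scale that understates the change of dim genes. The brightest probe set on average stood for its gene, and 12726 genes reached 100 units on 1 or more of the 7 arrays. With 1 array a side there is no replicate of the treatment. The only replicated condition is the control, so the distance between control 1 and control 2 served as the yardstick, and a gene was called when it differed over 2-fold between the progerin arrays and by more than its own gap between the controls. Nothing in the labels says whether the controls were separate cultures.

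The 7 arrays fell into 2 sets by their control probe sets, and the controls lay in different sets. The geometric mean signal of the 12 poly-A spike-in probe sets was 1564 on control 2, 1487 on the progerin array and 1278 on the treated progerin array, against 253.4 to 261.4 on control 1 and the 3 prelamin A arrays. The 18S rRNA probe sets ran the other way, at 104.3, 113.6 and 184.5 on the first 3 arrays and 794.6 to 962.3 on the other 4. The gap between the controls therefore spans the sets, while both progerin arrays lie within 1 set and both prelamin A arrays of the FTI comparison within the other. The part of this in the results was not tested. All 12 fibroblast markers were bright on both progerin arrays, from 1909 (PDGFRB) to 38261 (COL1A2) without FTI and from 1379 to 40045 with it, and none differed over 2-fold. Their summed signal was 305871 without and 321557 with FTI. Of markers of other cell types, 2 of 6 for keratinocytes, 2 of 4 for endothelium, 1 of 3 for leukocytes, 0 of 3 for melanocytes and 2 of 4 for smooth muscle reached 100 on a progerin array. Those at 100 or more were KRT10 (5634 and 4980 without and with FTI), DSP (5734 and 7340), TEK (284.7 and 344.2), PECAM1 (113.3 and 133.3), CD14 (329.1 and 197.9), CNN1 (1325 and 1706) and ACTA2 (12282 and 12743). The defining KRT5, KRT14, CDH5, PTPRC and MLANA were all under 25. CDH1, VWF and DES, all under 100, differed by over 2-fold. The part of the brighter markers in the results was not tested. Changes in cell number of a type and in RNA per cell cannot be told apart in such bulk RNA.

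LMNA itself was nearly level. Its brightest probe set read 9300 on control 1, 14029 on control 2, 16289 on the progerin array and 15240 after FTI, a log2 difference of -0.10. The prelamin A arrays read 8498 untreated, 9814 with FTI and 9488 with ZMPSTE24 on this probe set, all below control 2. On the progerin arrays the next 3 probe sets by signal differed by -0.03, 0.18 and -0.01, and a dim one read 229.5 and 108. Which of these probe sets also reads the transgene's mRNA is not stated in the sources used here, so endogenous LMNA and progerin mRNA cannot be told apart.

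FTI left most of the transcriptome of progerin cells close to where it was. The median log2 difference over the 12726 genes was -0.01 with a standard deviation of 0.37, and 51.83% of the genes were below 0. Within 1.5-fold stayed 11689 genes (91.85%). Between the control arrays the standard deviation was 0.62 and 75.19% stayed within 1.5-fold. The treated and untreated progerin arrays were thus closer to each other than the controls were, with the difference in spike-in set noted above. By the call rule 91 genes were higher with FTI (0.715% of those compared) and 177 were lower (1.39%), together 268 (2.11%). Counting every gene over 2-fold, 336 (2.64%) passed between the progerin arrays, 665 (5.23%) between the prelamin A arrays without and with FTI, and 1181 (9.28%) between the controls. The split of 34% higher among the calls became 45.3% after quantile normalization, with 110 genes higher and 133 lower.

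**Figure D1:**
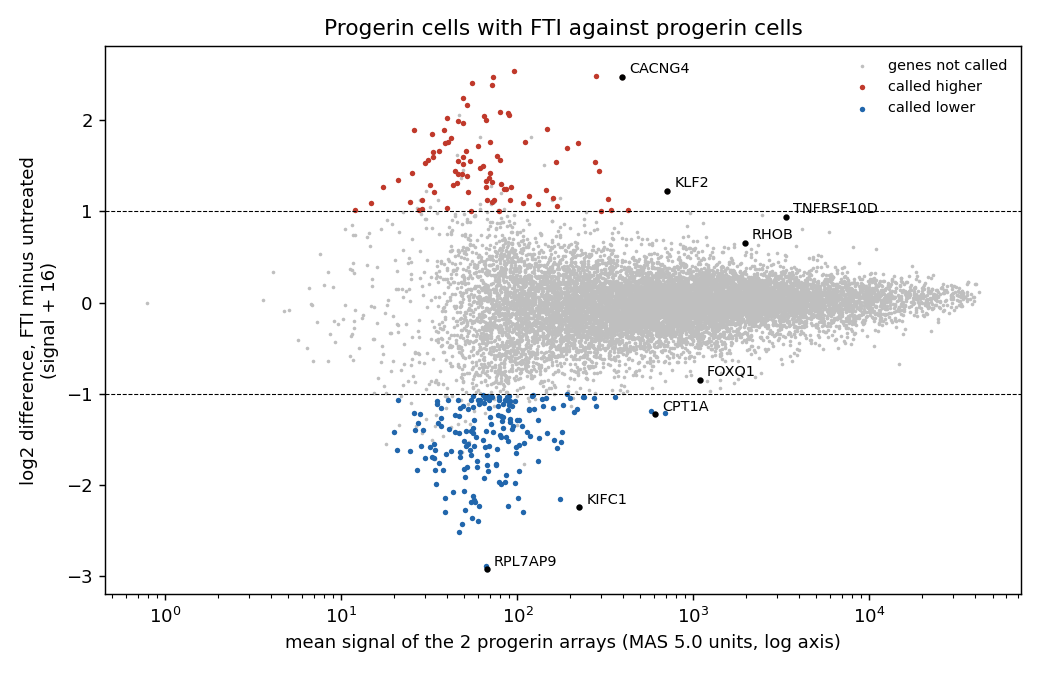
Log2 difference between treated and untreated progerin cells (y axis, on signal + 16) against the mean signal of both arrays (x axis, log scale), 1 point a gene, with called genes in red (91 higher) and blue (177 lower) and dashed lines at 2-fold. The calls crowd at low signal, and above a mean signal of 1000 no point reaches either line.

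The called genes were dim. Their median mean signal on the progerin arrays was 63.9 for those called higher and 67.4 for those called lower, against 677.9 over all genes compared. Of the 91 called higher, 45 were under 100 on both progerin arrays and passed the filter through another array, and 9 were at 100 or more on both. Of the 177 called lower, 76 were under 100 on both and 13 at 100 or more on both. Among genes with a mean signal under 100, 16.7% differed over 2-fold with FTI, against 27.6% between the controls. At 200 to 500 the shares were 0.803% and 8.12%, and at 1000 to 5000 they were 0 of 3897 genes with FTI and 4.93% between the controls. Among the 9432 genes at 200 or more on both progerin arrays, 7 (0.0742%) differed over 2-fold, 3 of them called higher (0.0318%) and 4 called lower (0.0424%). Of the same genes 182 (1.93%) differed over 2-fold with FTI in prelamin A cells and 495 (5.25%) between the controls.

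**Figure D2:**
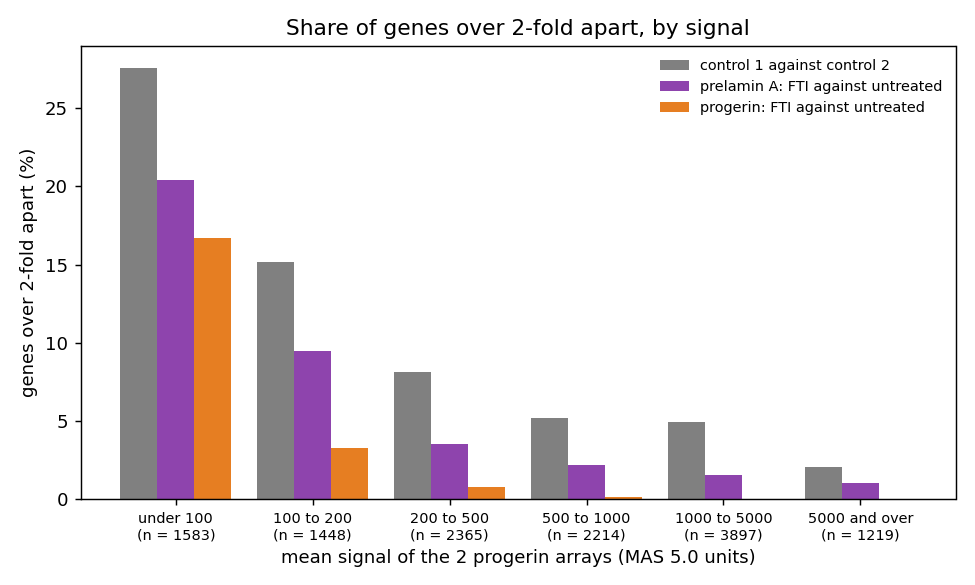
Percentage of genes over 2-fold apart (y axis) by mean signal of the progerin arrays (x axis, number of genes below each band) for the controls (grey), FTI in prelamin A cells (purple) and FTI in progerin cells (orange). The orange bars are the lowest in each band, from 16.7% under 100 to 0 from 1000 up.

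The 7 brighter genes over 2-fold were KLF2, GPR155 and IGHG1, which were higher, and CPT1A, DTX3, CD82 and DEPP1, which were lower. These and the other bright genes described next were picked after their values were seen. Most were among the 15 of largest change in each direction at 200 or more on both arrays, while RHOB, a farnesylated protein, and ADH1B, for its several probe sets, were picked beside them. The untreated array enters both the distance of a lamin line from the controls and its difference with FTI. Genes picked for a large difference therefore tend to look as if they return towards the controls. This limit holds for all the picked genes below. The upstream sequences of 2 of the genes that were higher and 2 that were lower are shown first, to let a reader set the promoters beside the values. Each is the 250 bases before the RefSeq gene start in GRCh38.p14, given 5′ to 3′ on the gene's strand. Capitals mark, on either strand, the GC box GGGCGG, the CCAAT box, the TATA element TATAAA, the E box CACGTG, the ETS motif CCGGAAGT and the cyclic AMP response element TGACGTCA.
KLF2, chr19:16324576-16324825, plus strand: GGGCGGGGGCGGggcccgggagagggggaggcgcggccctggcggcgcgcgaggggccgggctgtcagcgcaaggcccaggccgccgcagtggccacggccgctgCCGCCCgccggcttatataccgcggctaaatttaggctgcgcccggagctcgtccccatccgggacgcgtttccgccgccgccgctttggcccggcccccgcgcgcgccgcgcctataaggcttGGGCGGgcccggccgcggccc
ZC3HAV1, chr7:139109721-139109970, minus strand: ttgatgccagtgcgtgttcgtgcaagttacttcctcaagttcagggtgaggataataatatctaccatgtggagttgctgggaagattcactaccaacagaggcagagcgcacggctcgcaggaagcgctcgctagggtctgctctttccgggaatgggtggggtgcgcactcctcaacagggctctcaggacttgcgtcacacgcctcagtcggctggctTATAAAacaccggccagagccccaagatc
CPT1A, chr11:68844278-68844527, minus strand: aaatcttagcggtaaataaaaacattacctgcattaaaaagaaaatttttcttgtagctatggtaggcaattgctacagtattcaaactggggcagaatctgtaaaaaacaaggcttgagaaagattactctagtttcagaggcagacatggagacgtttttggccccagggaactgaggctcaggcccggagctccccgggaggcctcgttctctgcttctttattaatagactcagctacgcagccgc
CD82, chr11:44565413-44565662, plus strand: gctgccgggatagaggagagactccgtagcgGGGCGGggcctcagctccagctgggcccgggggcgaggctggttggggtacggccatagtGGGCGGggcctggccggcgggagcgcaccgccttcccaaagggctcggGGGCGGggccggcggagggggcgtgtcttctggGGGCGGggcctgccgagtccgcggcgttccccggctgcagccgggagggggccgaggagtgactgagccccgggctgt
KLF2 and CD82 have GC-rich windows (80% and 77.2%) with 4 matches to GGGCGG each, a motif present in 65.8% of the 10355 windows of this length. ZC3HAV1, at 55.6% GC, has a TATAAA close to the gene start, found in 5.7% of windows, and none of these motifs occurs in the window of CPT1A, at 44.4% GC. KLF2 and ZC3HAV1 shared none of these motifs in their windows, and a match is a description of letters only.

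KLF2, a zinc finger transcription factor induced by shear stress and by statins in endothelium, was the brightest gene called higher. Its signal was 2149 and 1193 on the controls, 418.5 on the progerin array and 998.2 after FTI, a log2 difference of 1.22 against a control gap of 0.84. Prelamin A cells read 801.7 without and 1491 with FTI. Both lamin lines were thus below both controls without FTI, and with it the progerin array remained below the lower control. A second, dim probe set went the other way, from 101.9 to 75.01.

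TNFRSF10D encodes a decoy receptor for the death ligand TRAIL and is a p53 target. It read 1360 and 1296 on the controls, 2283 in progerin cells and 4385 after FTI, 1.92-fold higher, and its control gap was 0.07. The prelamin A line went from 3020 to 5435. The second probe set gave 289.6 to 727.6 in progerin cells and 271.7 to 728.9 in prelamin A cells. All 4 of these pairs were higher with FTI, and on both probe sets the treated arrays lay further above the controls than the untreated ones.

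ZC3HAV1, the zinc finger antiviral protein, whose long isoform is itself farnesylated, read 2181 and 1988 on the controls, 1660 in progerin cells and 3252 with FTI, a log2 difference of 0.96. Its second bright probe set went from 1029 to 2003, close to the same proportion, with controls at 2320 and 1057. On that set the treated progerin array lay between the controls and the untreated one just below both. The prelamin A line went from 1824 to 2908 on the brighter set. The treated arrays of both lines lay above both controls for the brighter probe set.

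RHOB, an endosomal small GTPase that is either farnesylated or geranylgeranylated and is known to accumulate under FTIs, read 2019 and 2130 on the controls, 1518 in progerin cells and 2399 after FTI. The log2 difference was 0.65, under the 2-fold rule, and the control gap was 0.08 in size. A second probe set went from 234.2 to 427.9. Prelamin A cells read 1319 and 1677. On the brighter probe set RHOB was below both controls on both untreated arrays, and with FTI above them in the progerin line but not in the prelamin A line. On the second, untreated progerin cells lay between the controls, at 128.5 and 315.7.

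SMUG1, a uracil-DNA glycosylase of base excision repair, went from 637 to 1268 with controls at 785.2 and 683, but its second probe set stayed at 513.2 and 477.6. IDH1, the cytosolic isocitrate dehydrogenase, went from 3026 to 5288 while a second bright probe set read 3665 and 3376. GPR155 went from 218.6 to 458.3, while its other 2 probe sets above 100 read 209 and 182.1, and 142.7 and 159. For these genes the probe sets disagreed, so the result belongs to the probe set. IGHG1 went from 277.1 to 574.8, with controls at 455.3 and 602.9, and had no second probe set above 100. INA, a neuronal intermediate filament subunit and a marker of the kidney cells used to make lentivirus, read 12.8 and 5.2 on the controls, 270 in progerin cells and 506.6 with FTI. The other 3 markers of that list read 121.4 and 49.4 (NEFL), 42.0 and 45.8 (NEFM) and 78.6 and 73.7 (NEFH) without and with FTI, and their part in the INA values was not tested. PSG7, a pregnancy-specific glycoprotein with near-identical paralogs that its probe set may also read, went from 4319 to 7386. Of the 15 brighter genes of largest increase, 14 were also higher with FTI in prelamin A cells, where they were not chosen, IDH1 being the exception. Only the sign was counted. The log2 differences of the 14 there ran from 0.007 for SLC12A7 to 1.32 for PSG7, and GPR155 (0.03), AAMP (0.09) and RAB6B (0.11) hardly differed. Of all 9432 genes of such signal, 53.9% moved the same way in both lines. In progerin cells, 3 of the 9 other probe sets of these 15 genes at 100 or more went the same way, and 5 of 8 did among the 15 of largest decrease.

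**Figure D3:**
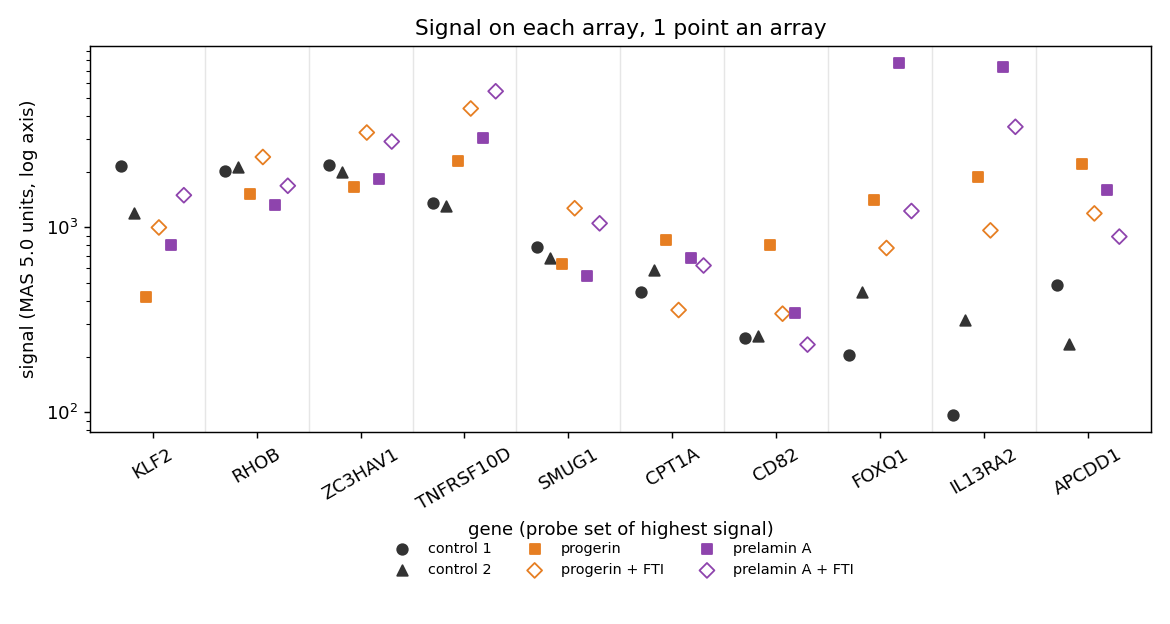
Signal (y axis, log scale) of 10 genes on 6 arrays, 1 point an array: controls in black, progerin in orange and prelamin A in purple, with open diamonds for FTI. For KLF2, RHOB, ZC3HAV1, TNFRSF10D and SMUG1 the open diamond is above the filled square in both lines, and for the other 5 genes it is below.

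CPT1A, which imports long-chain fatty acids into mitochondria for oxidation, had the largest decrease among the brighter genes. It read 447.1 and 584.8 on the controls, 855.8 in progerin cells and 357.4 after FTI, a log2 difference of -1.22 against a control gap of 0.38 in size. Prelamin A cells hardly differed, at 680.8 and 621.8. Its 2 other probe sets above 100 were lower too, but by only 0.16 and 0.27, so the size rests on 1 probe set.

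CD82, a tetraspanin that restrains migration, read 252.3 and 258.4 on the controls, 801 in progerin cells and 341.5 after FTI, a log2 difference of -1.19 with a control gap of 0.03 in size. Prelamin A cells went from 346.2 to 232.5. A second CD82 probe set went from 175.3 to 105.4 in progerin cells. On the brighter probe set the treated array was still above both controls, and on the second, with controls at 105.5 and 130.3, it was not.

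DTX3, a ubiquitin ligase of the Deltex family, read 257.9 and 400.4 on the controls, 965.9 in progerin cells and 408.6 after FTI, but a second probe set moved from 82.0 to 131.6. DEPP1, a FOXO-responsive regulator of autophagy, went from 490 to 230 in progerin cells and from 675 to 220 in prelamin A cells, and was called lower in both. Its second probe set read 188.2 and 205.6 in progerin cells. IL13RA2, the decoy receptor for interleukin 13, stood at 97.0 and 315.5 on the controls, 1862 in progerin cells and 962.9 after FTI. Prelamin A cells went from 7393 to 3492. APCDD1, a membrane inhibitor of WNT signalling, stood at 486.7 and 235.3 on the controls, 2205 in progerin cells and 1189 after FTI, with 1600 and 890.8 in prelamin A cells. Neither gene passed 2-fold in progerin cells, and both remained above the controls with FTI. Of the 15 brighter genes of largest decrease, 7 were also lower in prelamin A cells with FTI.

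The alcohol dehydrogenase ADH1B read 213.2 and 122.1 on the controls, 2857 in progerin cells and 1613 after FTI, and its other 2 probe sets above 100 went from 2494 to 1552 and from 378.4 to 152.3. The untreated prelamin A array read 275.9, and the array of prelamin A with ZMPSTE24 read 3776. PPL, a desmosome-associated plakin, went from 1548 to 844 with controls at 438 and 302. Both genes stood above the controls and the prelamin A array in untreated progerin cells, and remained above the controls with FTI.

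The largest fold changes by rule were in genes near the detection range. The 15 largest rises ran from REEP2, which shapes the endoplasmic reticulum (17 to 174, log2 difference 2.54), to INSL3, an insulin-like peptide (92 to 347, 1.74). CACNG4, an auxiliary calcium channel subunit, was the brightest of them, at 438 and 308 on the controls, 108 in progerin cells and 672 after FTI. With FTI in prelamin A cells CACNG4 went the other way, from 353 to 125. The list also held IKZF1, a lymphoid transcription factor (11 to 134), KMT5C, a histone H4 lysine 20 methyltransferase (20 to 138), MMP28, a metalloproteinase (24 to 153, with a second probe set at 105.6 and 51.3), and SUN5, a nuclear envelope protein of the testis (42 to 180). Of the 15, 6 were also higher with FTI in prelamin A cells.

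The 15 largest falls ran from the pseudogene RPL7AP9 (131 to 3, log2 difference -2.92) to LURAP1 and SLC25A42 (163 to 30 and 135 to 22, -1.97 each). KIFC1, a minus-end kinesin of the mitotic spindle, read 53.9 and 276.3 on the controls, 380.2 in progerin cells and 67.8 after FTI, so its fall was barely beyond the distance between the controls. UTS2R, the urotensin 2 receptor, went from 294 to 54 and NECTIN4, an adhesion molecule, from 111 to 8. Both went up in prelamin A cells with FTI, from 56 to 178 and from 9 to 97. The list also held SMCP of sperm mitochondria (110 to 11), the galanin receptor GALR3 (157 to 21) and the protease TMPRSS13 (102 to 10). RPL7AP9, NECTIN4 and TMPRSS13 reached 100 on the untreated progerin array alone. They entered through the array where they were high, so the filter itself favours a fall in such genes. None of the 15 had a second probe set of 100 or more, and 7 of the 15 were lower in prelamin A cells with FTI.

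The prenylation machinery, which includes the enzyme the drug inhibits, was steady in transcript level. None of the 12 measured genes of this list was called, all 12 stayed within 1.5-fold, and the median difference was 0.13 against -0.01 over all genes. Some probe sets disagreed in these small differences. FNTA, the alpha subunit shared by farnesyltransferase and the type I enzyme for the longer geranylgeranyl group, went from 5565 to 6765, and its second probe set from 2370 to 2247. FNTB, the farnesyltransferase beta subunit, was dim at 47 and 61. ICMT, which methylates the trimmed cysteine, went from 3686 to 4207 and from 1748 to 1535 on its second probe set, and the farnesyl diphosphate synthase FDPS from 2700 to 3151. ZMPSTE24 read 5073 and 5195 and RCE1, the other CAAX protease, 199 and 178. The largest of these differences was 0.30 on the log2 scale, and the transcripts carry no measure of enzyme activity.

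Genes of the nuclear lamina and envelope (18 measured, 0 called) had a median of -0.10, with 11 below 0. The called SUN5 is not in this list. LMNB2, the constitutive farnesylated lamin B2, went from 773 to 490, with controls at 535 and 612. SUN2 of the LINC complex went from 958 to 698. TOR1A, an ATPase of the envelope lumen, went from 2378 to 3171, and its second probe set from 1678 to 1413. The 35 measured genes of proteins known to be farnesylated had a median of -0.05 with 0 called. Apart from RHOB and LMNB2, the largest differences were in RASD2 (58 to 35), RND2 (78 to 51), DNAJA4 (300 to 395) and PRICKLE1 (476 to 624). The other 3 probe sets of DNAJA4 above 100 were lower with FTI, by 0.23 to 1.07 on the log2 scale.

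FOXQ1, the forkhead factor that the study singled out on these arrays, was lower with FTI in both lines but was not called in progerin cells. It read 204.8 and 448.7 on the controls, 1401 in progerin cells and 773.2 after FTI, a 1.80-fold decrease (log2 difference -0.84) against a control gap of 1.07 in size. The prelamin A line went from 7676 to 1225. The treated progerin array thus remained above both controls. The study called genes by a different statistic (the S-score) and also reported RT-qPCR, in which FOXQ1 moved back towards normal with FTI. Over the 18 forkhead genes measured the median was -0.29, the lowest of the 34 lists. In this list 14 genes were below 0, against 51.83% of all genes compared, and 0 were called. FOXN4, a forkhead gene that was called lower (175 to 27), is not in this list. FOXF2 went from 2401 to 1867, FOXN3 from 2479 to 1783 and FOXK1 from 671 to 508, all within 1.5-fold. For FOXF2 and FOXN3 the control gaps, 0.77 and 0.75 in size, were wider than these differences.

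Readouts of RAS signalling and of actin moved little. The RAS-ERK list (21 measured, 0 called) had a median of -0.15 with 17 below 0. Its median was -0.27 between the controls and -0.28 with FTI in prelamin A cells. FOSL1, an AP-1 subunit and ERK target, went from 1363 to 900 with controls at 636 and 702. The zinc finger factor EGR1 went from 4554 to 3191 with controls at 33045 and 6347. Of the 2 other EGR1 probe sets at 100 or more, 1 was lower too. The ERK phosphatase DUSP4 went from 1770 to 1354. Feedback genes of the pathway were not uniform, PHLDA1 going from 3068 to 2430 and SPRY4, a RAS pathway inhibitor, from 152 to 204. The immediate early list (20 measured) had KLF2 as its only call and a median of -0.02. FOS was dim, at 96 and 54, with controls at 1131 and 156.
Targets of SRF and actin genes (21 measured, 0 called, median 0.05) all stayed within 1.5-fold. CNN1, calponin, went from 1325 to 1706 and the matricellular CCN1 and CCN2 from 19392 to 23578 and from 16832 to 20599.

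Genes of cell division were slightly lower with FTI and p53 targets slightly higher, by list medians smaller in size than those between the controls. DNA replication genes (30 measured) had a median of -0.16, with 24 below 0 and ORC1 and E2F2 called lower. The helicase subunits MCM2, MCM5 and MCM7 went from 1491 to 1041, from 939 to 668 and from 1008 to 714, levels near those of the controls. E2F2, a transcription factor of S phase, went from 199 to 81 and ORC1, of the origin recognition complex, from 126 to 54. Mitosis genes (34 measured, 0 called) had a median of -0.10 with 26 below 0 (the called spindle kinesin KIFC1 is not in the list), while the same list differed by 0.60 between the controls. HMMR, a hyaluronan receptor that also binds the spindle, went from 1824 to 1059 on its brighter probe set and from 711.4 to 751.3 on its second. The mitotic kinase PLK1 went from 329 to 243 and the proliferation marker MKI67 from 633 to 515. In prelamin A cells this list was higher with FTI, at a median of 0.49. The architectural chromatin protein HMGA1 went from 4630 to 3115 in progerin cells and from 1076 to 2054 in prelamin A cells.
The 27 p53 targets measured had a median of 0.13, the highest of the 34 lists, with 21 above 0 and 0 called. Next to TNFRSF10D, the pro-apoptotic BAX went from 2290 to 2905 and AEN, an apoptosis nuclease, from 481 to 710, while SPATA18, a regulator of mitochondrial quality, went from 2854 to 1874 on its brightest probe set and from 567.7 to 619 on the second. The CDK inhibitors and senescence genes (14 measured, 0 called) had a median of 0.08. DNA repair and telomere genes (25 measured) had a median of -0.17 with the helicase BLM called lower (260 to 75), and the histone H2AX went from 3060 to 1788 while its other 2 probe sets above 100 went up, from 179.2 to 212.6 and from 87.6 to 122.3. Heterochromatin genes (27 measured, 0 called) had a median of -0.05, and the list does not hold the called KMT5C. The histone chaperone DAXX read 1153 and 762 on its brightest probe set and 648.2 and 718.6 on the second.

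Extracellular matrix lists had medians close to 0, with members on both sides. The share within 1.5-fold was 89.2% for collagens and their enzymes, 88.5% for proteoglycans and 83.3% for metalloproteinases, against 91.85% of all genes. It was 96.2% for elastic fibre and matricellular genes and 95.8% for integrins and laminins. Of 37 genes of collagens and their enzymes, only P3H2, a prolyl 3-hydroxylase, was called. It read 304 and 311 on the controls, 45 in progerin cells and 128 after FTI. COL8A1, a short-chain collagen, was at 24177 and 23368 on the controls, 8697 in progerin cells and 13029 after FTI, and went from 9245 to 14700 in prelamin A cells. Both genes were low in the lamin lines, and the treated arrays lay nearer the controls. The untreated array is shared by both comparisons, so for genes picked by their difference such a return is partly built in. The median of the list was 0.09.
Proteoglycan and hyaluronan genes (26 measured, median 0.04) had OGN called lower (45 to 7), and elastic fibre and matricellular genes (26 measured, median -0.06) had MGP called lower (58 to 7), both dim. PRELP went from 7244 to 5431 and the cartilage proteoglycan ACAN from 721 to 440. For PRELP the control gap of 1.185 was wider than its difference of -0.41. TNFAIP6, which binds hyaluronan in inflammation, went from 604 to 341 in progerin cells and from 2654 to 307 in prelamin A cells. Its controls were at 258.8 and 1664, further apart than the progerin arrays. Metalloproteinases and TIMPs (18 measured, 0 called) had a median of 0.06, against -0.54 with FTI in prelamin A cells. The called MMP28 is not in this list. MMP1, interstitial collagenase, read 12175 and 15930 on the controls, 18037 in progerin cells and 11332 after FTI. MMP12 and MMP10 were dim in progerin cells, at 67 and 45 and at 30 and 39, while prelamin A cells went from 3291 to 341 and from 3024 to 34.
Integrins and laminins (24 measured, median -0.10), TGF-beta and BMP genes (21, median 0.04), secreted WNT modulators (19, median -0.02) and Notch genes (11, median 0.03) held 2 calls in all, TGFB2 (111 to 46) and the WNT-linked receptor LGR5 (1.72 to 49.8). LGR5 reached 100 on the treated prelamin A array alone. RSPO3, a secreted enhancer of WNT signalling, stood at 105 and 70 on the controls, 2377 in progerin cells and 1378 after FTI.

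Metabolic and stress lists held 2 calls, CPT1A and CTSS. The medians were 0.00 for cholesterol synthesis (18 measured), -0.15 for fatty acid and adipogenic genes (18), -0.02 for oxidative phosphorylation (35), 0.06 for hypoxia and glycolysis (30), 0.00 for the unfolded protein response (24), 0.04 for the amino acid response (22), -0.08 for oxidative stress defence (27), -0.24 for metallothioneins (8), 0.02 for autophagy and lysosome (24), and 0.03 for the cytosolic ribosome (33). Cholesterol is made by the mevalonate pathway, which also supplies the farnesyl group. INSIG1, which restrains SREBP processing, went from 2160 to 1595 and the sterol oxidase MSMO1 from 3429 to 4172. Both differences were smaller in size than the control gaps of these genes, 0.74 and 0.43. SCD, a fatty acid desaturase, was lower on all 4 of its probe sets above 100, the brightest at 1683 and 1129. Metallothioneins, which bind zinc and copper, had 6 of 8 members below 0 and 75% within 1.5-fold, against 91.85% of all genes. MT3 read 180 and 90, MT2A went from 12304 to 9911 and MT1X from 4251 to 2827. For MT1X the control gap, 0.79 in size, was wider than its difference of -0.59.
Prostaglandin genes (15 measured, 0 called) had a median of -0.20, interferon response genes (38, 0 called) -0.04 and secreted senescence factors (37, 0 called) -0.03. The interferon list differed by 0.99 between the controls, MX1 reading 2415 on control 1, 409 on control 2, 393 in progerin cells and 294 after FTI.
Over all 34 lists, 782 different genes were measured and 11 were called, against 2.11% of all genes compared. In 24 lists no member was called. The list medians ran from -0.29 to 0.13 with FTI in progerin cells, from -0.54 to 0.49 with FTI in prelamin A cells and from -1.29 to 0.99 between the controls.

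**Figure D4:**
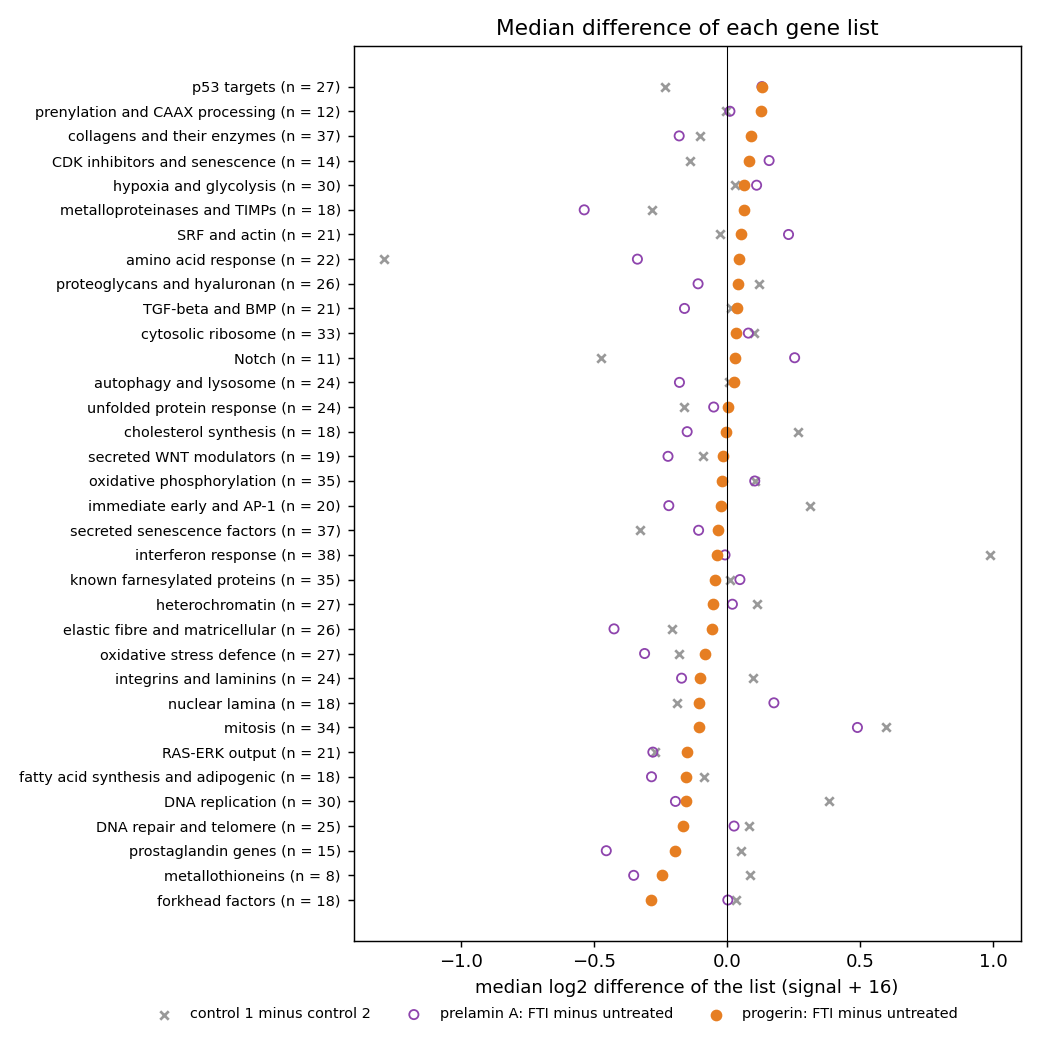
Median log2 difference (x axis) of each of 34 gene lists (y axis, with the number of genes measured) for FTI in progerin cells (orange), FTI in prelamin A cells (open purple) and control 1 minus control 2 (grey crosses). The orange points lie between -0.29 and 0.13, a narrower range than either other series of points.

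The FTI response of the prelamin A line shares no array with that of the progerin line. It held more calls, 522 genes (4.1%), 222 higher (1.74%) and 300 lower (2.36%). Of the genes called in progerin cells, 7 were called higher in both lines (7.69% of the progerin calls and 3.15% of the prelamin A calls) and 20 lower in both (11.3% and 6.67%). In opposite directions, 11 were higher in progerin and lower in prelamin A cells (12.1% and 3.67%) and 16 the reverse (9.04% and 7.21%). Calls in opposite directions were therefore as numerous as calls in the same direction, 27 each (10.1% of the progerin calls and 5.17% of the prelamin A calls). Across genes, which are not independent, the Pearson correlation of the responses was 0.056 over all genes, 0.144 over those at 200 or more on both progerin arrays and 0.183 over the 4917 at 1000 or more.

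Among genes called higher in both lines, FHAD1, a protein with a forkhead-associated domain, had the highest signals, at 211 and 280 on the controls, 82.1 and 301 in progerin cells without and with FTI, and 62.8 and 253 in prelamin A cells. FHAD1 was below both controls on both untreated arrays of this comparison and near them on both treated ones. It was picked on these differences, so this return is partly built in as well. RUNDC3A went from 10.4 to 87.3 and from 26.1 to 134. It reached 100 on the treated prelamin A array alone and so entered through an array where it was high. Its rise in that line is therefore no support for a shared response. DUSP8, a MAP kinase phosphatase, went from 94 to 226 and from 46 to 126. A second DUSP8 probe set went the other way in progerin cells, from 125.7 to 31.5. Among those called lower in both, GLDN, gliomedin, read 132.1 and 178.2 on the controls, 297.8 and 120.5 in progerin cells and 1075 and 205.9 in prelamin A cells, and its second probe set was lower in both lines. CTSS, the lysosomal protease cathepsin S, went from 200.3 to 88.7 and from 520.2 to 152.4, with controls at 160.6 and 182. CD274, the immune checkpoint ligand PD-L1, went from 88 to 23 and from 98 to 37.

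**Figure D5:**
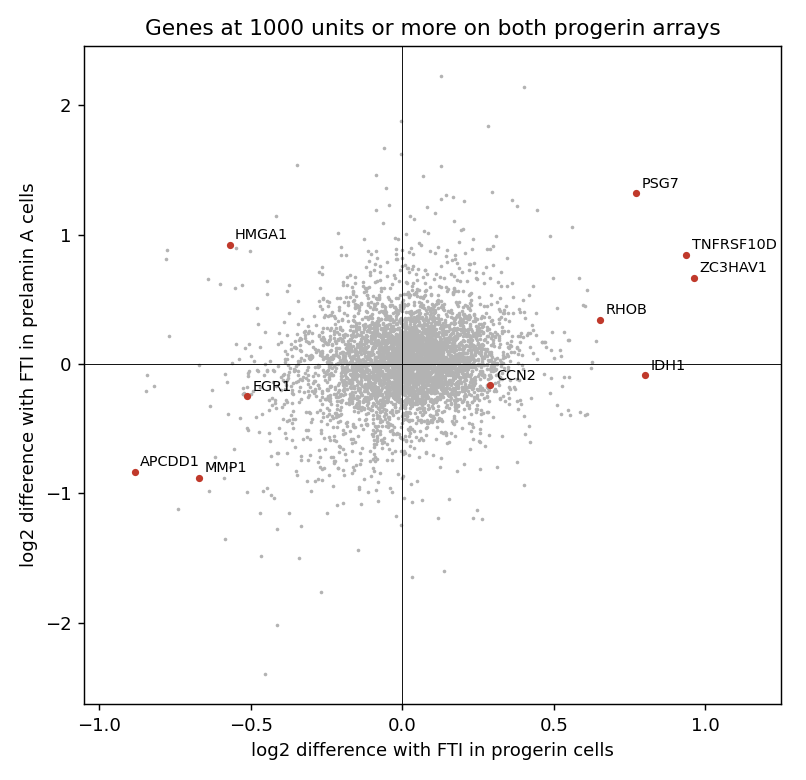
Log2 difference with FTI in prelamin A cells (y axis) against that in progerin cells (x axis) for the 4917 genes at 1000 or more on both progerin arrays, 1 point a gene, with 10 genes named in red. PSG7, TNFRSF10D, ZC3HAV1 and RHOB lie at the upper right, APCDD1 and MMP1 at the lower left, and HMGA1 at the upper left.

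No gene passed an adjusted p of 0.05 in any of the model fits. In a limma fit of all 7 arrays, where the controls give the only residual degree of freedom and each lone array is assumed to vary like them, 0 genes had an adjusted p under 0.05 for FTI in progerin cells (64 higher and 121 lower at an unadjusted p under 0.05). The difference of the response between the lines gave 0 genes too (95 and 139 unadjusted). A separate fit of a response common to both lines also gave 0 genes (99 and 255 unadjusted). That fit has 2 residual degrees of freedom, as disagreement between the lines enters beside the gap between the controls. With the spike-in set as a term in the common fit, where the residual is the disagreement between the lines, 220 genes (1.73%) were higher and 497 (3.91%) lower at an unadjusted p under 0.05, and the smallest adjusted p was 0.841. In that limma fit the common log2 difference was 0.89 ± 0.16 (SE) for TNFRSF10D, 0.82 ± 0.17 for ZC3HAV1, 1.05 ± 0.18 for KLF2, 0.50 ± 0.17 for RHOB and 1.73 ± 0.16 for FHAD1. It was -0.87 ± 0.23 for CD82, -0.86 ± 0.16 for APCDD1, -1.01 ± 0.16 for IL13RA2 and -1.74 ± 0.47 for FOXQ1. FOXQ1 was picked by the study on these arrays, and the other genes were picked after their values were seen. FHAD1 was picked for being called the same way in both lines. The SE of this fit is small wherever the lines agree, so it does not show how precise the values of such picked genes are. The adjusted p of each of these 9 genes was 0.841. Without the set term, where the gap between the controls enters the residual, the SE was 0.53 for IL13RA2, 0.37 for APCDD1, 0.33 for KLF2, 0.57 for FOXQ1 and 0.18 to 0.23 for the other 5, and no adjusted p was under 0.05.

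The promoters of genes called in progerin cells held fewer CpG dinucleotides than those of all genes compared. A RefSeq promoter, from 250 bases before to 50 after the gene start, was given for 10355 of the 12726 genes, for 57 of the 91 called higher and for 133 of the 177 called lower. The median number of CpG dinucleotides was 26 over all genes, 12 for those called higher and 16 for those called lower. GGGCGG on either strand was present in 68.7%, 43.9% and 52.6%, and TATAAA in 5.99%, 8.77% and 12.8%. No test was made of these shares, and the called genes were also dimmer than the rest.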

How the data were processed

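RNA of 7 fibroblast samples was hybridised to Affymetrix U133 Plus 2.0 arrays. The authors deposited 1 table of MAS 5.0 signal intensities (tool named in the submitters' processing notes, version not given), scaled so that the mean after trimming 2% at each end is 500 on every array. No scanner files were used here, and no detection calls.

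Of 54675 probe sets, 62 are array controls, 41091 carry 1 gene in the platform annotation (41037 found in RefSeq), 1801 several and 11721 none. Only probe sets of 1 gene that reached 100 units on any array entered, and the brightest on average stood for its gene. Values were log2(signal + 16). Fits used limma 3.58.1 in R 4.3.3 with Benjamini-Hochberg adjustment over all genes, after a test on simulated data; counts and promoters were handled in Python 3.11.15. The number of arrays limits the precision.

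Named genes were the prenylation enzymes, LMNA, ZMPSTE24 and FOXQ1, the 15 largest rises and 15 largest falls among called genes at 100 or more on the higher progerin array, up to 6 members of largest change in each of 34 lists, and up to 10 genes called the same way in both lines in each direction. The comparison, its members and the lists were chosen with earlier results of these data known. FOXQ1 was picked by the study on these arrays. Alternatives were other normalizations, pseudocounts, filters, call rules and limma settings. A further list is not reported here.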

Additional observations from a re-analysis of the deposited data

How the results depend on the processing

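The counts of calls followed the filter on dim genes. The main rule gave 91 genes higher and 177 lower with FTI in progerin cells. Counts were 24 and 48 with a pseudocount of 64, 28 and 57 where the mean signal had to reach 100, 47 and 103 where a gene had to reach 100 on 1 of the 2 progerin arrays, 518 and 768 with no filter, and 209 and 324 over every probe set. A 3-fold rule gave 34 and 59, and a control gap set at percentile 95 of genes of like signal gave 20 and 38. At 200 or more on both progerin arrays, chosen after seeing the data, 3 and 4 remained. Quantile normalization, median centring, a pseudocount of 1 and 2-fold alone left both counts within 1.5 times. Of the 276 named genes, 61 were called, and none of these changed sign in any setting where its probe set stood for the gene. A change of filter or pseudocount cannot change the sign of a probe set's difference, so this is a weak check. Of the gene values, 125 of 1834 moved by more than the spread between the controls, as did 23 of 238 list medians. Gene values that a filter leaves as they were count among the 1834.

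The limma counts were 0 in every setting. Leaving out either control gives the same common fit as the spike-in set term does, so it is not a separate check. With the spike-in set and an intensity trend, a combination added after seeing the data, the smallest adjusted p of the common fit was 0.0538. Without either control the fit of all conditions has no residual degrees of freedom, so no test was made, and the call rule needs both controls. No paired analysis was possible because only the controls carry replicate numbers; the common fit with the spike-in set sets treated against untreated cells within each line. Low signal limits most calls: both progerin arrays reached 100 for 9 of the 91 and 13 of the 177 called genes.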
